A study of Mus musculus with 24 samples.

Results

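Plasma miRNA of male C57BL/6J mice that inhaled the particles called EPFR lo was set against that of mice that breathed filtered air. All 16 mice with these 2 labels were taken, 8 per group, out of 24 in the series. By the labels, each mouse was 20 weeks old and spent 4 h/day for 5 days in the exposure chamber. The labels put EPFR lo particles at 250 µg/m3, while the study's methods state a higher concentration and an age range that ends at 20 weeks. EPFR stands for environmentally persistent free radicals, which are long-lived radicals held on the surface of combustion particles, and EPFR lo is the preparation of lower radical content. The remaining 8 mice inhaled EPFR, the preparation of higher radical content, at the same mass of particles. No group of these samples received particles free of radicals, so the particle and its radicals cannot be told apart here. RNA, called exosomal by the labels, was purified from 200 µL of plasma per mouse, and 10 ng of it was ligated to tags and counted on the NanoString nCounter mouse miRNA panel, which reads single molecules through colour-coded probes without amplification. The panel gave counts for 566 mouse miRNA probes, and every one of them was tested.

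A miRNA is a short RNA that guides the Argonaute protein to messenger RNAs through its seed, bases 2 to 8, and lowers the output of those messages. Plasma miRNA is carried in vesicles, in Argonaute complexes and in lipoproteins, and most of it comes from blood cells, with smaller inputs from liver, muscle, vessel wall and other organs. Some miRNA are made almost wholly by 1 cell type, such as miR-122 by hepatocytes, miR-451 by red blood cells and miR-142 by cells of the haematopoietic lineage, and these serve as marks of the tissue of origin. As plasma pools the RNA of every source, more cells that release a miRNA and more of that miRNA per cell cannot be told apart.

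The mature sequences below show miRNA of positive log2 fold change in EPFR lo mice that the results turn on, beside family members of the same seed whose fold change was near 0 or negative. Sequences are from RefSeq on GRCm38.p6, 5′ to 3′, with the seed in capitals.
miR-23a: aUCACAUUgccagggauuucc
miR-106b: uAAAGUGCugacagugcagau
miR-93: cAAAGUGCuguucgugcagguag
miR-21: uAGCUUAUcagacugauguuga
miR-205: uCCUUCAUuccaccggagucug
miR-148a: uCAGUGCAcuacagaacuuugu
miR-152: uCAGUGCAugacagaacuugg
miR-342-3p: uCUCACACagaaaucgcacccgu
let-7g: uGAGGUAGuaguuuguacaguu
let-7i: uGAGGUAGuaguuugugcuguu
let-7f: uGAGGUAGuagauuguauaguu
miR-98: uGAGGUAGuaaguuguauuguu
miR-451: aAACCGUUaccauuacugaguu
miR-16: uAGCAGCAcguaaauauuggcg
miR-144: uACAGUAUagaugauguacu
The loci of the first of these are chr8:84208563-84208583 on the plus strand for miR-23a, and chr5:138165787-138165807 and chr5:138165574-138165596 on the minus strand for miR-106b and miR-93, which are cut from 1 transcript within the gene Mcm7. Those of miR-205 and miR-148a are chr1:193507503-193507524 and chr6:51269829-51269850, both on the minus strand. let-7g lies at chr9:106178846-106178867 on the plus strand and let-7i at chr10:122985698-122985719 on the minus strand. miR-451 and miR-144 lie side by side on the plus strand, at chr11:78073186-78073207 and chr11:78073047-78073066.

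Depth ran from 9083 to 30483 mouse miRNA counts in EPFR lo mice and from 8665 to 18568 in filtered air mice. The spiked ligation controls, which report how much of the RNA was tagged, ran from 1018 to 6346 (median 4457) in EPFR lo mice and from 353 to 3988 (median 2172) in filtered air mice, a log2 difference of 0.91 (SE 0.54, exact permutation p = 0.112, two-sided, 0.446 after Benjamini-Hochberg adjustment over 8 sample measures). The counts were scaled to the housekeeping probes, whose mean counts, 17.9 at the highest, lay within the range of the negative-control probes, the highest of which averaged 29.0. Background was set from the negative controls, and above background means here that the average of a miRNA over the 24 mice passed their mean of 17.3 plus 2 SD, 34.1 counts. The EPFR lo mice are part of this average, so a miRNA can pass the limit through them. By this limit 41 of 566 miRNA were above background, and they held 50.1% of all counts. The probes for let-7a, miR-155, miR-34c and miR-543 read 1 count in each of the 24 mice and carry no information on exposure. The 33 viral probes of the panel, 0 of them above background, had a median log2 difference of 0.00059 between EPFR lo and filtered air mice, with 0 at an unadjusted exact permutation p under 0.05.

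Positive log2 fold changes in EPFR lo mice were more frequent among the abundant miRNA, 39 of 41 above background with a median of 0.57, than among the rest, 282 of 525 with a median of 0.02. Counts near background understate a change, so this contrast by abundance is in part fixed by the measurement and was not tested. In edgeR's quasi-likelihood test with Benjamini-Hochberg adjustment over all 566 miRNA, 1 rose (0.177% of those tested), the liver miRNA miR-122, and 0 fell (0.0%). Before adjustment, at p under 0.05 in edgeR, 35 miRNA stood higher (6.18%) and 9 lower (1.59%). Of the 35, 18 were above background and 17 at or under it, among them miR-122. All directions here are relative to the housekeeping probes, and with the spiked ligation controls as scaling the median of all 566 miRNA moved to -0.99, against 0.04 with the housekeeping probes. In DESeq2 8 miRNA passed after adjustment, of which 7 were higher and 1, miR-669i, was lower.

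Among the 6 miRNA with a mean count above 100, all had a positive log2 fold change, with a median of 0.71. Of the 35 between the background limit and 100 counts, 33 were positive (94.3%), and the class median was 0.55, with 16 higher by the unadjusted test. In the 112 between the negative-control mean and the limit, 70 were positive (62.5%), with a median of 0.08, 12 higher and 0 lower at an unadjusted p, and this class holds the only adjusted call. The 413 at or under the negative-control mean were balanced, with 212 positive (51.3%), a median of 0.01, 5 higher and 9 lower at an unadjusted p. As their counts are mostly background, a median near 0 there cannot show that these miRNA did not change. Classes drawn from the 8 EPFR mice alone, which enter this comparison only through the shared estimate of spread, gave the same order, with 28 of 30 positive between the limit and 100 (median 0.53), 7 of 7 above 100 (median 0.84) and 230 of 442 at or under the negative-control mean (median 0.01). By mouse, the median of the 35 miRNA between the limit and 100, on the log2 scale against the filtered air mean, ran from -0.04 over 0.58 to 1.04 in EPFR lo mice (lowest, median, highest) and from -0.44 over 0.04 to 0.36 in filtered air mice, so the groups overlapped.

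In raw counts, the 6 most abundant miRNA summed to 2425 to 16171 per mouse (median 5876.5) in EPFR lo mice and to 1648 to 8134 (median 2065.5) in filtered air mice. They held 40.1% of all counts in EPFR lo mice and 28.1% in filtered air mice. The 413 miRNA at or under the negative-control mean summed to 3595 to 6625 counts (median 4663) in EPFR lo mice and to 3831 to 6227 (median 4934) in filtered air mice, and held 29.3% and 39.4% of the counts in EPFR lo and filtered air mice. A raw count holds background as well as miRNA. In the deposited normalized values, from which the background had been subtracted, the class medians in limma were 1.08 above 100, 0.87 from the limit to 100, 0.22 below the limit and 0.08 at or under the negative-control mean, with 0 called at an adjusted p under 0.05, 35 higher and 8 lower at an unadjusted p.

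**Figure D1:**
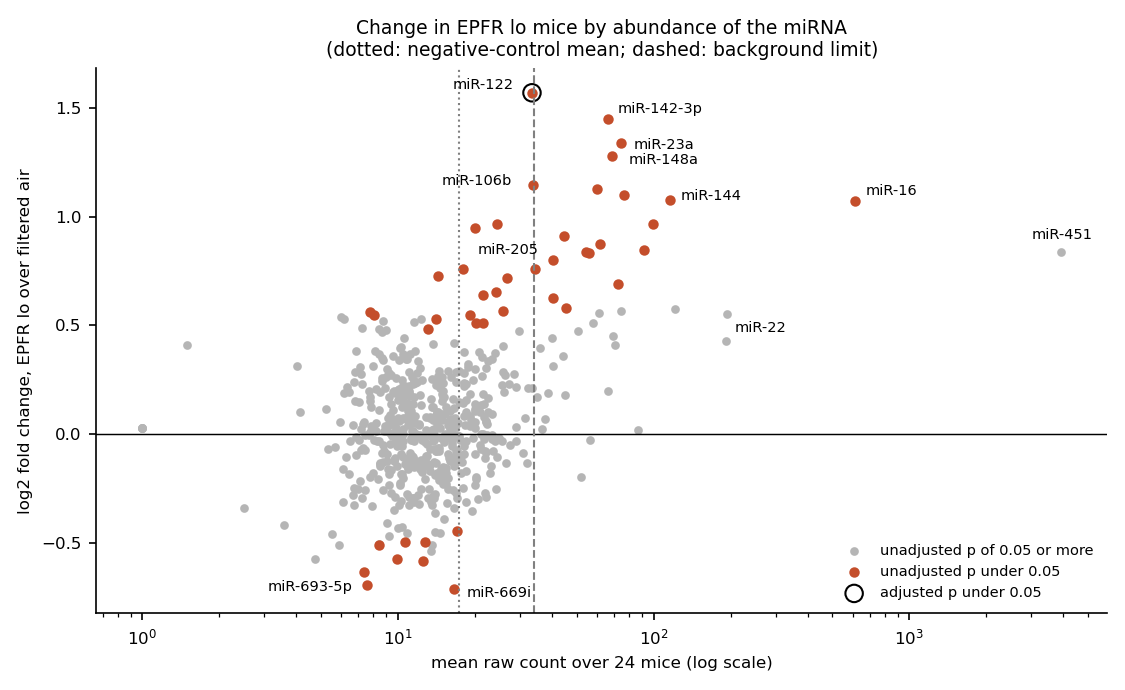
Log2 fold change of each of the 566 miRNA in EPFR lo over filtered air mice (y axis) against its mean raw count over 24 mice (x axis, log scale), with the negative-control mean of 17.3 (dotted) and the background limit of 34.1 counts (dashed). To the right of the limit 39 of 41 points lie above 0, while the 525 to its left centre on 0.02 (with ligation-control scaling 8 of 41 were above 0), and the ringed point, miR-122 at 33.4 counts, sits just under the limit. Counts near background understate a change.

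With housekeeping scaling over all mice, liver had the highest median among the tissue lists, through 2 of its 4 members. It was also highest with the total miRNA count as scaling, at 0.42. With ligation-control scaling the liver median was -0.34, below the red blood cell list at -0.24. In mice 1 to 4 it was 1.02, beside 1.07 for red blood cell, and in mice 5 to 8 0.49, beside 0.65 for the let-7 family. miR-122, the dominant miRNA of hepatocytes, was counted at 15.6, 62.5 and 91.9 scaled counts (lowest, median, highest) in EPFR lo mice and at 6.73, 18.1 and 33.6 in filtered air mice. In 7 of 8 EPFR lo mice it was above the filtered air median, and in 5 above the highest filtered air mouse. It averaged 56.8 ± 30.0 scaled counts in EPFR lo mice and 19.0 ± 9.29 in filtered air mice (SD, n = 8 each), so the log2 fold change was 1.57 (SE 0.35, adjusted p = 0.0286 in edgeR), or 2.97-fold. Its raw count passed a mouse's own background limit in 5 of 8 EPFR lo mice and in 1 of 8 filtered air mice, so most filtered air values lie within background. Its mean raw count of 33.4 put miR-122 just under the background limit, as did miR-106b at 33.7, whereas let-7c at 34.5 and miR-384-3p at 34.8 lay just above. With the deposited background-subtracted values in limma its log2 fold change was 2.65 (SE 0.83), with an adjusted p of 0.233, and without the 3 mice whose housekeeping probes were all at background it was 1.29, with an adjusted p of 0.341 in edgeR. Without EPFR lo mouse 2, 4 or 8, or without filtered air mouse 1, 2, 3, 4 or 7, the adjusted p of miR-122 in edgeR was 0.0755, 0.105, 0.0991, 0.131, 0.0539, 0.0849, 0.0857 and 0.12 in that order, while its log2 fold change stayed between 1.44 and 1.74 over all 16 such fits.

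The second liver-rich member, miR-148a, ran from 24.9 over 84.4 to 219.6 scaled counts in EPFR lo mice and from 12.5 over 40.9 to 54.4 in filtered air mice. The upper part of the EPFR lo range lay clear of filtered air, in 5 of 8 mice. Its log2 fold change was 1.28 (SE 0.40, adjusted p = 0.18 in edgeR), and it does not mark liver alone. miR-192 and miR-194, which liver shares with gut and kidney, were at or near background with mean counts of 13.7 and 14.1, and had log2 fold changes of 0.41 (SE 0.27) and -0.08 (SE 0.22). miR-152, of the same seed as miR-148a, had a log2 fold change of -0.06. The list of 4 had a median of 0.85 beside 0.04 over all 566 miRNA, 3 positive and 1 called. The 41 miRNA above background had a median of 0.57, and only 1 of the 4 is among them.

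All 8 measured leukocyte miRNA had positive log2 fold changes, the median being 0.54, with 4 higher by the unadjusted test, beside 321 of 566 positive and 6.18% higher over all miRNA. Of the 9 listed, 5 are above background, and the 17 miRNA above background in no list had 15 positive, 5 higher and a median of 0.41. miR-142-3p, made in haematopoietic cells, had 29.0, 80.4 and 147.5 scaled counts (lowest, median, highest) in EPFR lo mice and 16.3, 24.9 and 63.5 in filtered air mice. Each of the 8 EPFR lo mice was above the filtered air median and 6 were above the highest filtered air mouse. Its log2 fold change was 1.45 (SE 0.38) with an adjusted p of 0.0501 in edgeR. With the number set of the mice (1 to 4 or 5 to 8, not a stated run) as a block, it was called, with an adjusted p of 0.0319 in edgeR. In DESeq2 it was also called, with an adjusted p of 0.0132. It was not called in limma on the deposited values with a pseudocount of 1 (adjusted p = 0.233). Nor was it called without the 3 mice with housekeeping at background (adjusted p = 0.341 in edgeR) or with the ligation level as a covariate. miR-223, the myeloid and platelet miRNA, ran from 45.4 over 86.0 to 218.0 in EPFR lo mice and from 29.1 to 96.1 with a median of 57 in filtered air mice, a log2 fold change of 0.84 (SE 0.32, adjusted p = 0.35 in edgeR). miR-150, of mature lymphocytes, was at 0.69 (SE 0.32) and miR-342-3p, which B and T cells carry, at 0.97 (SE 0.28, adjusted p = 0.124 in edgeR, and 0.0454 with the number-set block). For miR-342-3p the adjusted p was 0.0132 in DESeq2 but 0.546 in limma with a pseudocount of 1. Without the 3 mice with housekeeping at background it was 0.415 in edgeR. miR-155, an activation marker of lymphocytes and macrophages, is one of the probes that read 1 throughout.

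The other arm of the same hairpin, miR-142-5p, had close medians in both groups of mice. It was the most abundant leukocyte entry after miR-223, with 56.6, 94.1 and 137.7 scaled counts in EPFR lo mice and 67.7, 90.4 and 106.9 in filtered air mice, and a log2 fold change of 0.02 (SE 0.26). The log2 ratio of miR-142-3p to miR-142-5p within a mouse, which no scaling can alter, averaged -0.32 ± 0.98 in EPFR lo mice and -1.70 ± 0.74 in filtered air mice (SD, n = 8 each). It ran from -1.74 to 0.87 in EPFR lo mice and from -2.43 to -0.09 in filtered air mice, and the groups overlapped. miR-142-3p passed a mouse's own background limit in 6 of 8 EPFR lo mice and in 1 of 8 filtered air mice. Most filtered air ratios therefore set a count within background against miR-142-5p. Raw miR-142-5p stayed at 76 to 98 counts in EPFR lo mice, whose totals ran from 9083 to 30483, and at 67 to 107 in filtered air mice. Whether the ratio follows depth was not tested.

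miR-23a and miR-106b also had higher log2 fold changes than partners cut from their own transcripts. Pairs from 1 transcript were chosen after their values were seen, so they are described and not tested. Ratios were taken in 14 such pairs, and only some are given. Their log2 difference between EPFR lo and filtered air mice ran from -0.57 (miR-93 over miR-25) to 1.38 (miR-142-3p over miR-142-5p). It was -0.02 (SE 0.37) for miR-221 over miR-222, 0.17 (SE 0.29) for miR-200a over miR-200b and 0.27 (SE 0.39) for miR-126-3p over miR-126-5p. miR-23a, a broadly expressed miRNA, had 31.5, 100.1 and 193.4 scaled counts in EPFR lo mice and 23.7, 38.7 and 66.2 in filtered air mice, a log2 fold change of 1.34 (SE 0.34, adjusted p = 0.0501 in edgeR, and 0.0319 with the number-set block). Its adjusted p was 0.0109 in DESeq2 but 0.233 in limma on the deposited values with a pseudocount of 1. Without the 3 mice with housekeeping at background it was 0.341 in edgeR. Of the 8 EPFR lo mice, 6 lay above every filtered air mouse. Its partners miR-27a and miR-24 were at 0.55 (SE 0.29) and 0.27, the last with a mean count of 9.17 under background. The within-mouse log2 ratio of miR-23a to miR-27a averaged 0.35 ± 0.42 in EPFR lo mice and -0.38 ± 0.32 in filtered air mice, and was above the filtered air median in 8 of 8 EPFR lo mice. It ran from -0.22 to 0.93 in EPFR lo mice and from -0.79 to 0.10 in filtered air mice, so the groups overlapped.

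miR-106b, outside the rule for naming miRNA and named here after its values were seen, was at 22.7, 46.2 and 75.0 scaled counts in EPFR lo mice and 10.8, 20.5 and 33.6 in filtered air mice. Its log2 fold change was 1.14 (SE 0.30, adjusted p = 0.0501 in edgeR, and 0.0369 with the number-set block). miR-93, with the same seed and from the same Mcm7 transcript, was at 0.06, and miR-25, the third of the cluster, at 0.55 (SE 0.36). The ratio of miR-106b to miR-93 ran from 0.85 to 1.37 in log2 over the EPFR lo mice and from -0.42 to 0.84 over the filtered air mice, and these ranges did not quite meet. Both miRNA average near or under the background limit, at 33.7 and 22.1 counts. Only 1 EPFR lo and 1 filtered air mouse had miR-93 above its own limit, so the ratio is in large part one of background counts.

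**Figure D2:**
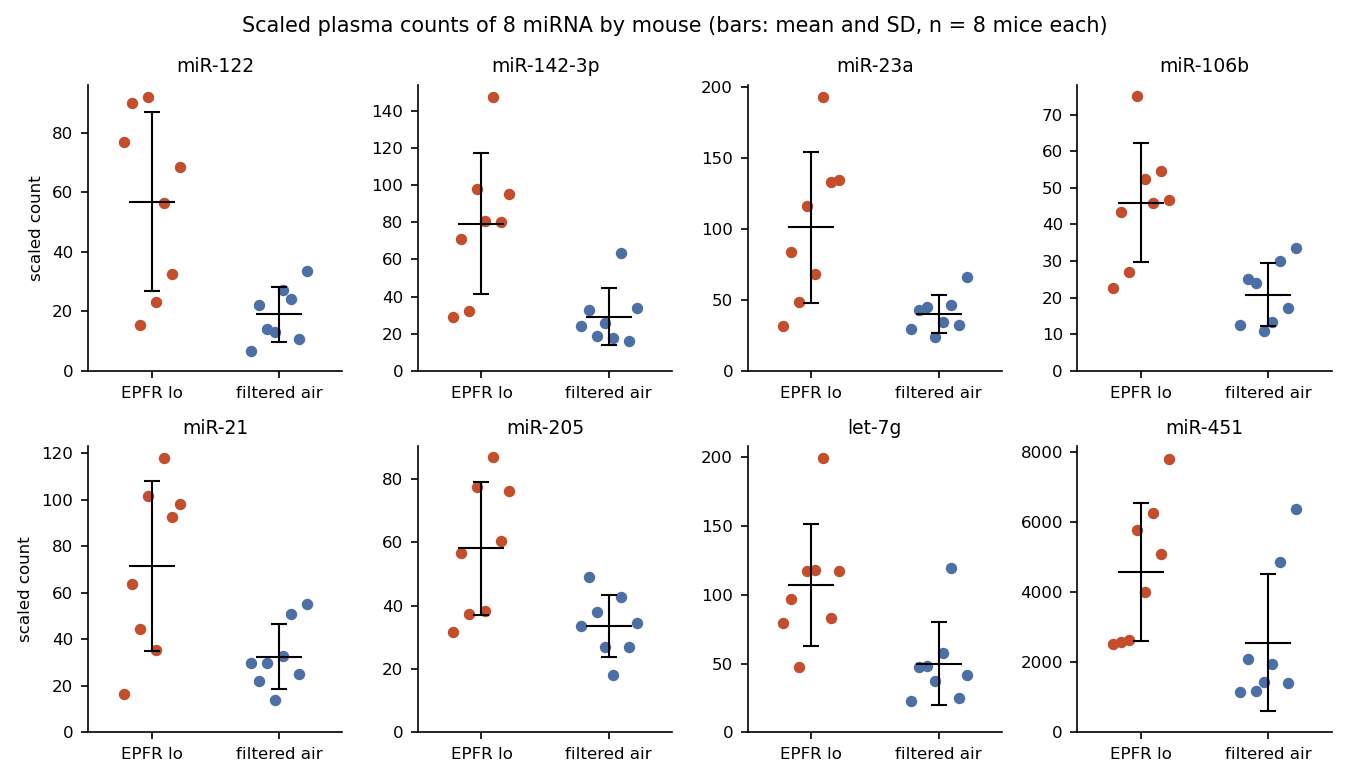
Scaled counts (y axis, a separate scale for each panel) of 8 miRNA in each EPFR lo mouse (left in each panel) and each filtered air mouse (right), with the mean and SD over 8 mice. miR-122, miR-142-3p, miR-23a, miR-106b, miR-21 and miR-205 have 5 or more EPFR lo mice above every filtered air mouse, while miR-451 and let-7g have 1 each.

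The red blood cell list held the most counts of the lists. Of the 10 members 9 were positive, the median log2 fold change was 0.57, and 3 passed the unadjusted test upwards, beside 6.18% of all miRNA. As 7 of the 10 are above background, where 39 of 41 were positive, 18 passed and the median was also 0.57, the list was close to the miRNA of like abundance. miR-451, the erythroid miRNA that holds more plasma counts than any other on the panel, had 2517, 4549 and 7823 scaled counts (lowest, median, highest) in EPFR lo mice and 1163, 1707 and 6373 in filtered air mice. Although 8 of 8 EPFR lo mice were above the filtered air median, filtered air mice 6 and 8, at 4865 and 6373, lay inside the EPFR lo range, and the log2 fold change of 0.84 had an SE of 0.63 (adjusted p = 0.953 in edgeR). miR-451 took 28.5% ± 8.27 of a mouse's miRNA counts in EPFR lo mice and 19.4% ± 8.68 in filtered air mice (SD, n = 8 each, exact permutation p = 0.0511, two-sided).

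miR-16, abundant in red cells and present in most tissues, ran from 136.1 over 700.4 to 1056 scaled counts in EPFR lo mice and from 85.0 over 178.5 to 889.9 in filtered air mice, a log2 fold change of 1.07 (SE 0.49, adjusted p = 0.588 in edgeR). miR-144, co-transcribed with miR-451, was at 1.07 (SE 0.40, adjusted p = 0.287 in edgeR), but without filtered air mouse 6 it was at 1.74 and was called. miR-486, another erythroid miRNA, was at 0.57 (SE 0.37). The 3 members with the AGCAGCA seed, miR-16, miR-15a and miR-15b, were all positive, from 0.45 to 1.07. miR-92a and miR-185, both under the negative-control mean, were at 0.21 and -0.32. The summed list was at 3048 to 9474 scaled counts (median 6074) in EPFR lo mice and at 1578 to 7991 (median 2176) in filtered air mice.

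The log2 ratio of miR-451 to miR-23a, a common measure of red cell rupture in plasma, averaged 5.58 ± 0.47 in EPFR lo mice and 5.77 ± 0.66 in filtered air mice (SD, n = 8 each, difference -0.18, SE 0.29, exact permutation p = 0.531, two-sided). As miR-23a itself had a log2 fold change of 1.34, this ratio is a limited guide. By the study's methods, haemolysed plasma had been left out. What part red cell RNA has in the other lists was not tested.

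The let-7 family had positive log2 fold changes in most of its members. These miRNA occur in nearly all tissues and differ from each other at 1 to 6 bases, so their probes may read one another's targets in part. Of 8 measured members with the seed GAGGUAG, 7 were positive, their median was 0.74, and 6 passed the unadjusted test upwards, beside 6.18% of all miRNA and 18 of the 41 above background. let-7g had 47.7, 107.2 and 199.1 scaled counts (lowest, median, highest) in EPFR lo mice and 23.1, 44.5 and 119.5 in filtered air mice. Every EPFR lo mouse was above the filtered air median, but filtered air mouse 6, at 119.5, exceeded 7 of the 8. Its log2 fold change was 1.10 (SE 0.35, adjusted p = 0.18 in edgeR). let-7d was at 0.95, let-7i at 0.88 (SE 0.32), let-7c at 0.76 (SE 0.26), let-7b at 0.72 and let-7e at 0.51. let-7c passed a mouse's own background limit in 6 of 8 EPFR lo mice and in 1 of 8 filtered air mice.

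The family was not uniform. let-7f, at 52.9, 70.4 and 113.6 scaled counts in EPFR lo mice and 52.0, 67.8 and 82.8 in filtered air mice, had a log2 fold change of 0.20 (SE 0.25) although it differs from let-7g at only 2 bases. miR-98 was at -0.51 (SE 0.26) with a mean count of 13.6, under background. Among other families that share a seed, miR-29a, miR-29b and miR-29c were positive at 0.84, 0.64 and 0.36, and miR-30a, miR-30c and miR-30e at 0.57, 0.65 and 0.20. The pair with seed AUUGCAC, miR-25 and miR-92a, was at 0.55 and 0.21.

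**Figure D3:**
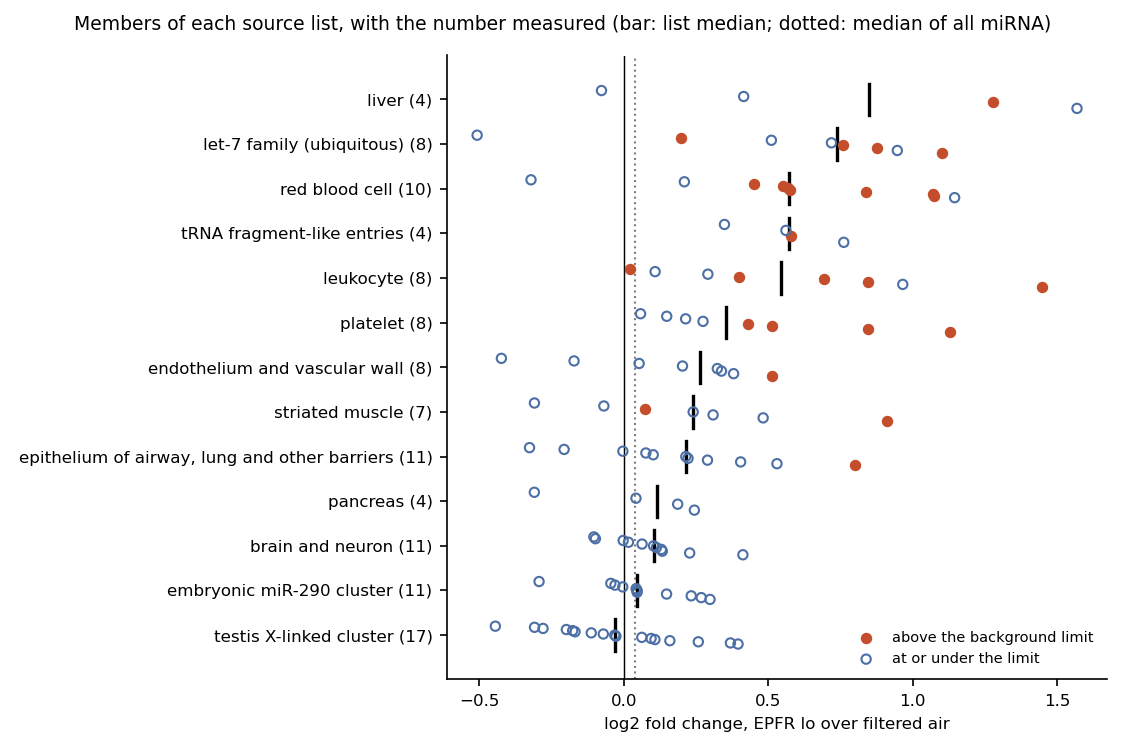
Log2 fold change in EPFR lo over filtered air mice (x axis) of each measured member of 13 lists by source (y axis), with filled points above and open points at or under the background limit, the list median as a bar and the median of all miRNA, 0.04, as a dotted line. Liver, the let-7 family, red blood cell, tRNA-like and leukocyte lists have medians of 0.54 or more, and the lists with no filled point lie between -0.03 and 0.11, whereas with ligation-control scaling all 13 medians were below 0.

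Platelet miRNA were all positive, 8 of 8, with a median of 0.35 and 2 higher at an unadjusted p under 0.05, beside 321 of 566 positive and 6.18% higher over all miRNA and 39 and 18 of the 41 above background. miR-21, found in platelets and in most injured or inflamed tissue, had 16.4, 78.3 and 118.0 scaled counts (lowest, median, highest) in EPFR lo mice and 14.0, 29.9 and 55.4 in filtered air mice. In EPFR lo mice 5 of 8 values lay above the filtered air range. Its log2 fold change was 1.13 (SE 0.35, adjusted p = 0.18 in edgeR). miR-22, the most abundant platelet entry, was at 0.43 (SE 0.34), with 1.36% of counts in both EPFR lo and filtered air mice.

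The vascular and muscle lists stood lower. The endothelial miR-126-3p, encoded in Egfl7, had 17.6, 69.3 and 127.5 scaled counts in EPFR lo mice and 12.5, 53.6 and 78.1 in filtered air mice, which overlapped over most of their range, with a log2 fold change of 0.51 (SE 0.33). miR-145, of vascular smooth muscle, was at 0.38 (SE 0.28) near background, and miR-221 and miR-222, which restrain endothelial growth, at -0.42 and -0.17 under background. None of the 8 vascular miRNA passed an unadjusted p of 0.05 in edgeR, and their median was 0.26. Among striated muscle miRNA, miR-1 had 16.4, 36.8 and 55.6 scaled counts in EPFR lo mice and 13.5, 18.9 and 30.7 in filtered air mice, a log2 fold change of 0.91 (SE 0.44, adjusted p = 0.595 in edgeR). miR-208a, specific to heart muscle, was at 0.07 (SE 0.28), and the list median was 0.24.

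The lung is the organ of first contact, and the epithelial list covers its airway miRNA. miR-205, of basal cells in airway and skin, was its only member above background and had 31.5, 58.4 and 86.9 scaled counts (lowest, median, highest) in EPFR lo mice and 18.0, 34.1 and 48.9 in filtered air mice. The average behind that limit includes the EPFR lo mice. miR-205 passed a mouse's own background limit in 7 of 8 EPFR lo mice, but in 2 of 8 filtered air and 2 of 8 EPFR mice. In 7 of 8 EPFR lo mice it was above the filtered air median and in 5 above the filtered air range. The log2 fold change was 0.80 (SE 0.25, adjusted p = 0.18 in edgeR). miR-203, of skin and other stratified epithelium, was at 0.08 (SE 0.21). The ciliated-cell miRNA miR-34b-3p, miR-34b-5p, miR-449a and miR-449b had mean counts of 18.4, 12.8, 10.8 and 6.71 and log2 fold changes of 0.10, -0.21, 0.21 and -0.33. miR-200a, miR-200b and miR-200c, the general epithelial family, were at 0.53, 0.40 and 0.22, the first higher at an unadjusted p under 0.05. Over 11 measured members the median was 0.21, with 8 positive.

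Lists of distant tissues were at background and near the median of all miRNA. None of the brain, pancreas, testis and miR-290 cluster miRNA was above the background limit, and their medians were 0.10, 0.11, -0.03 and 0.05. miR-129-3p and miR-129-5p, of neurons, were at -0.10 (SE 0.22) and -0.00 (SE 0.24). miR-375 and miR-216a, of pancreatic islets and acini, were at 0.19 (SE 0.23) and -0.31 (SE 0.26). In the testis cluster, miR-883b-5p and miR-471 were at -0.03 (SE 0.21) and 0.09 (SE 0.22). miR-290-5p and miR-295, of early embryos, were at -0.03 (SE 0.20) and 0.27 (SE 0.21). At these counts a change in a tissue that releases little RNA was not detectable.

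The panel also lists entries that match tRNA fragments. All 4 were positive, their median was 0.57, and 3 passed the unadjusted test upwards, beside 321 of 566 positive and 6.18% higher over all miRNA. miR-720 had 20.2, 50.1 and 78.6 scaled counts in EPFR lo mice and 23.7, 35.3 and 52.6 in filtered air mice, a log2 fold change of 0.58 (SE 0.28, adjusted p = 0.595 in edgeR). miR-1937c was at 0.35 (SE 0.25).

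The 9 lower miRNA all had mean counts at or under the negative-control mean. miR-669i, of the Sfmbt2 cluster, had 5.89, 14.7 and 21.7 scaled counts in EPFR lo mice and 14.4, 21.7 and 33.6 in filtered air mice, and fell short of the threshold with a log2 fold change of -0.71 (SE 0.23, adjusted p = 0.185 in edgeR). miR-693-5p was at -0.69 (SE 0.24) and miR-1951 at -0.58 (SE 0.24). In 0 of the 16 mice did any of these 3 pass the mouse's own background limit, so their differences lie among background counts.

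Against filtered air, the EPFR mice, which share those controls, had 4 miRNA called higher (0.707% of 566), let-7i, miR-1, miR-142-3p and miR-376a. miR-122 was not among them, with 26.3 ± 20.9 scaled counts in EPFR mice (SD, n = 8) and a log2 fold change over filtered air of 0.46 (SE 0.37). miR-142-3p was at 1.61 (SE 0.38) in EPFR mice beside 1.45 (SE 0.38) in EPFR lo mice. miR-1 and miR-376a were at 2.05 (SE 0.44) and 2.08 (SE 0.44) in EPFR mice, beside 0.91 (SE 0.44) and 0.96 (SE 0.44) in EPFR lo mice. miR-1 was at 417.0 scaled counts in EPFR mouse 3 and at 13.1 to 78.3 in the other 7 EPFR mice, so 1 mouse held most of the counts behind that value. miR-205 was at -0.28 (SE 0.26) in EPFR mice beside 0.80 (SE 0.25) in EPFR lo mice.

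Tested directly, EPFR lo differed from EPFR in 0 of 566 miRNA (0.0%) at an adjusted p under 0.05 in edgeR, with 14 higher and 8 lower at an unadjusted p, and no other tool was run on this contrast. The smallest adjusted p was that of miR-205, 0.0559, at 58.0 ± 20.9 scaled counts in EPFR lo mice and 27.9 ± 9.06 in EPFR mice, a log2 fold change of 1.08. For miR-122 the log2 fold change of EPFR lo over EPFR was 1.11 (SE 0.35, adjusted p = 0.683 in edgeR). The miRNA above background had a median log2 fold change of 0.57 in EPFR lo and 0.59 in EPFR mice, both over filtered air.

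The direction of much of this comparison depends on the scaling. With the ligation controls in place of the housekeeping probes, the median of all miRNA was -0.99, that of the 41 above background -0.40 with 8 positive, and edgeR gave 0 higher and 313 lower miRNA before adjustment. The medians of all 13 lists were negative under that scaling. With the total miRNA count as scaling the median of all miRNA was -0.36 and that of the miRNA above background 0.21, with 12 higher and 111 lower, and the platelet, leukocyte, muscle, vascular and epithelial medians were at or under 0. With the 100 most abundant miRNA as scaling the split was 15 higher and 120 lower, with TMM 34 and 25, and with DESeq2 31 and 19. The miRNA at or under background had medians of -1.01 with the ligation controls and -0.38 with the total count, below those above background. A scaling factor moves every miRNA of a mouse alike, so the choice of scaling could hardly change this order and does not test it. miR-122 was at 0.62 (SE 0.46, adjusted p = 0.211 in edgeR) with the ligation controls.

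Within EPFR lo mice, the log2 ligation control count went with the summed scaled count of the miRNA above background without miR-451, with Pearson's r of 0.835 (exact permutation p = 0.0188) and Spearman's rho of 0.548 (exact permutation p = 0.171). Without EPFR lo mice 1 and 3, the farthest from the median ligation count, r was 0.077. Leaving them out cut the ligation range to 3956 to 6346, so the lower r cannot decide whether the relation holds. In filtered air mice r was 0.543 (exact permutation p = 0.139), rho was 0.476 and r without the 2 farthest mice was 0.782. After Benjamini-Hochberg adjustment over 10 such relations the smallest p was 0.0558. In EPFR lo mice miR-142-3p had an r of 0.873, miR-106b one of 0.843 and miR-23a one of 0.793, each with an adjusted exact permutation p of 0.0558, and -0.111, -0.059 and 0.0985 without mice 1 and 3. For miR-122 r was 0.242 in EPFR lo and 0.211 in filtered air mice. When the ligation level entered the fit as a covariate, 0 miRNA were called in edgeR, 13 were higher and 9 lower at an unadjusted p, and miR-122 was at 1.44 (SE 0.36, adjusted p = 0.126). In that fit the median of the miRNA above background was 0.28, against 0.57 without the covariate, and that of the red blood cell list 0.24, against 0.57. miR-142-3p was at 0.91, miR-23a at 0.81, miR-106b at 0.80 and miR-144 at 0.53. The part of tagging efficiency in the result was not tested further.

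**Figure D4:**
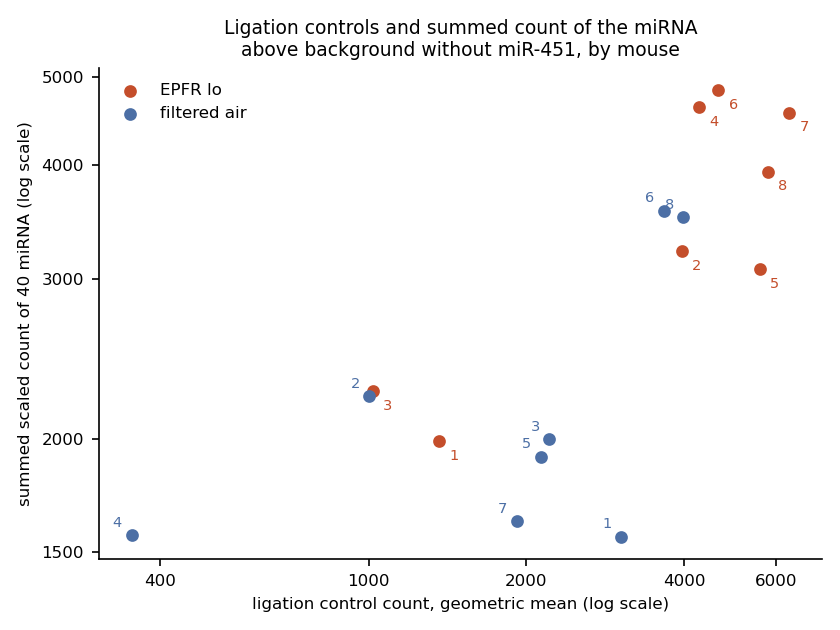
Summed scaled count of the 40 miRNA above background other than miR-451 (y axis, log scale) against the geometric mean of the ligation controls (x axis, log scale), 1 point per mouse with its number, for EPFR lo and filtered air mice. The EPFR lo mice 2 and 4 to 8 lie at 3956 ligation counts or more, and among filtered air mice only mouse 8 reaches that level.

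Several instrument runs were made for the study, but which mouse was in which run is not stated in the sources used here. Mice numbered 5 to 8 had more counts than mice numbered 1 to 4 in both groups, with totals of 16084 to 30483 against 9083 to 15399 in EPFR lo mice and of 11953 to 18568 against 8665 to 9877 in filtered air mice. Their positive controls did not overlap either. Within numbers 1 to 4, the log2 fold change of EPFR lo over filtered air stood at 2.31 in miR-122, at 1.18 in miR-142-3p, at 0.99 in miR-23a and at 1.22 in miR-106b. Within numbers 5 to 8 these were 0.95, 1.62, 1.56 and 1.09. The miRNA above background had medians of 0.54 and 0.57 in these sets of mice, and the red blood cell list 1.07 and 0.32. In edgeR's test of the difference between the sets, 0 of 566 miRNA passed an adjusted p of 0.05 and 23 an unadjusted p of 0.05. miR-122 was among the 23, with a log2 difference of -1.38 (SE 0.68, unadjusted p = 0.0472 and adjusted p = 0.989 in edgeR). It was called in neither set alone, with an adjusted p of 0.198 in numbers 1 to 4 and 0.136 in numbers 5 to 8 in edgeR.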

How the data were processed

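Raw probe counts were deposited by the authors unscaled. The authors also deposited a normalized signal from nSolver, in which the negative-control geometric mean was subtracted and values were scaled to positive controls and to Gapdh, Actb, Rpl19 and B2m. Tables of fold changes and p-values from their own comparisons were not used. Raw counts were tested here with edgeR 4.0.16 (R 4.3.3; quasi-likelihood F test, all 24 mice, group as the only factor, no filter on low counts), with Benjamini-Hochberg adjustment over 566 miRNA. Libraries were scaled by raw geometric means of the housekeeping probes, and scaled counts are raw counts multiplied by that factor. A positive-control factor applied first would move the housekeeping probes alike and cancel between mice, so none was applied. For single values, all 12870 regroupings of the 16 mice were enumerated in a two-sided exact permutation test (its lowest p is 0.000155) on log2(scaled count + 1). limma 3.58.1 was run on log2 of the deposited values with a pseudocount of 1 or 10, and DESeq2 1.42.0 on the raw counts. Further alternatives were TMM, positive-control, total-count, top 100 and ligation-control scaling, the above-background miRNA alone, the 16 mice alone, a replicate or number-set block, each number set alone, a ligation covariate, leaving out 3 mice (EPFR lo 2 and 4, filtered air 2) with all housekeeping probes at background, and leaving out each mouse in turn. Scaling to background-subtracted housekeeping counts was chosen after seeing the data. The edgeR step was tested on simulated data. The miRNA named are those past an adjusted p of 0.05, the 10 above background with the smallest p, the 5 most abundant, the 2 most abundant of each list, the 3 lower ones with the smallest p, and miR-451, miR-16 and miR-23a, 37 in all. Others named were chosen after their values were seen. The members and lists were chosen with earlier results of these data known. Precision is limited by counts near background. Each mouse is a separate animal, and no 2 mice correlated above 0.864 in log2 counts. Mature sequences came from RefSeq (GRCm38.p6).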

Additional observations from a re-analysis of the deposited data

Results flagged for a closer look

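In 90 checks of 1 group each, 5 values stood further from the rest of their group than 95% of samples would allow by Dixon's ratio, and chance marks about 1 in 20 groups. let-7i was at 118.8 scaled counts in EPFR lo mouse 6, against 49.2 to 63.8 in the other EPFR lo mice. let-7i was also highest in filtered air mouse 6, at 76.9 scaled counts against 19.5 to 37.5. miR-216a, of the pancreas, was at 2.89 scaled counts in filtered air mouse 1, against 8.61 to 17.8 in the others. miR-295, of the embryonic miR-290 cluster, was at 23.7 in filtered air mouse 8, against 10.1 to 14.8. The geometric mean of the negative controls was 10.5 counts in filtered air mouse 1, against 15.6 to 19.7.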

How the results depend on the processing

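In place of the 1 miRNA called, the number at an adjusted p under 0.05 was 6 with TMM (5 higher, 1 lower), 2 with positive controls alone, 6 with the total count (3 higher, 3 lower), 13 with the 100 most abundant miRNA (4 higher, 9 lower), 30 (all lower) with ligation controls, 8 in DESeq2 (7 higher, 1 lower), 3 among the above-background miRNA alone, 0 in limma at either pseudocount, 9 over the 16 mice, 0 without the mice with housekeeping at background or with the ligation covariate, 5 with a block for the number set, 0 in mice 1 to 4, 2 in mice 5 to 8, and 4 with background-subtracted housekeeping, the alternative chosen after seeing the data. Leaving out 1 mouse gave 0 to 9, with 9 without filtered air mouse 6, 6 and 5 without EPFR lo mice 1 and 3, 3 without filtered air mouse 8, and 0 without any of the 8 mice named above for miR-122. The cause of these shifts was not tested. Against 35 higher and 9 lower at an unadjusted p, these alternatives gave 12 and 111 (total count), 15 and 120 (100 most abundant), 0 and 313 (ligation controls), 12 and 0 (above background), 23 and 16 (without housekeeping at background) and 13 and 9 (ligation covariate). The lower count alone went to 25 (TMM), 19 (DESeq2), 4 (mice 1 to 4) and 1 (background-subtracted housekeeping). Leaving out 1 mouse gave 22 to 45 higher and 4 to 17 lower.

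The correlation of same-numbered mice of the 2 groups ran from -0.03 to 0.28, over 0.1 in 2 of 8, over all miRNA. Over the miRNA above background it ran from -0.04 to 0.57, over 0.1 in 4 of 8. Of 8 EPFR lo mice, 1 correlated best with its own number. These 8 correlations cannot decide whether equal numbers pair the mice, and the main fit did not pair them. With a replicate block, 9 miRNA were called.

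Relative to all miRNA, the median of the red blood cell list (0.53) was 1.04 and that of the leukocyte list (0.36, miR-155 included) 0.95 in limma with a pseudocount of 1, and that of striated muscle was -0.048 with ligation controls. Without filtered air mouse 6 the red blood cell median was 0.90, and over all mice left out in turn it ran from 0.42 to that value. miR-122, the 1 miRNA called in the main fit, kept its sign under these alternatives. Of miRNA called higher in DESeq2, miR-205 and miR-1 were at -0.30 and -0.22 with ligation controls, while miR-142-3p and miR-23a were at 0.27 and 0.27. Counts at background limit what can be seen in 525 of 566 miRNA.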
